A study of Homo sapiens with 12 samples.

Results

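Transcription factors of the neural crest (SOX10, SOX9, SOX2, SOX4, SOX5, PAX3, TFAP2A, TFAP2C and SNAI2) and the receptor NGFR were followed in A375 melanoma cells. They were taken by symbol from a table of 44659 genes, and all 10 were found in it. A375 is an established human melanoma line with an activated BRAF, so that every library came from 1 line. In the first experiment, cells received 500 nM vemurafenib, an inhibitor of BRAF, with 500 nM cobimetinib, an inhibitor of MEK, for 24 h (MAPKi), or DMSO, the solvent. In the second, cells spent 24 h in medium lacking glutamine (Gln-depleted) or holding 2 mM glutamine (CTRL). Cells of the first experiment also had 2 mM glutamine. Each of the 4 groups had 3 libraries of RNA depleted of ribosomal RNA. The paper describes the MAPKi experiment as done in triplicate. In the second experiment the labels place replicate 1 in another experimental batch than replicates 2 and 3. Beyond this, nothing says whether the libraries of a group came from separate cultures, so p-values measure the spread between these libraries.

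Melanocytes descend from the neural crest, a migratory cell population of the embryo that also gives rise to Schwann cells, peripheral neurons and cartilage of the face. A small network of factors specifies the crest: AP-2 proteins (TFAP2A, TFAP2C), PAX3, the E-box repressor SNAI2 and the SOXE proteins SOX9 and SOX10, of which SOX10 and PAX3 activate MITF, the main regulator of pigment cells. NGFR, the low-affinity neurotrophin receptor p75NTR, marks crest stem cells, and melanoma cells with high NGFR are known from tumours exposed to BRAF inhibitors.

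Between 31056296 and 40071368 reads were counted on genes per library. Levels are given as CPM, reads per 1000000 reads counted after TMM scaling. The melanoma line carried some of its lineage markers: MITF averaged 387 CPM and CSPG4 1663 CPM in DMSO. MLANA and TYR averaged less than 1 CPM there, and MIA had 2 to 17 reads per library over the 12 libraries. With MAPKi, CSPG4 averaged 156 CPM, S100B 39.5 CPM against 171 in DMSO, and MIA had 2 to 5 reads against 8 to 10. MITF (671 CPM), DCT (7770 against 198), PMEL (216 against 28.4), MLANA (4.87), TYR (2.81) and S100A1 (207 against 190) averaged higher. CSPG4 averaged 1417 ± 880 CPM in CTRL and 1245 ± 667 in Gln-depleted (SD, n = 3). Keratinocyte genes KRT5, KRT1 and DSG3 and the T cell gene CD3E had 0 reads in the 12 libraries, of 31056296 reads or more each, and KRT14 had at most 7. Of 3 endothelial markers, PECAM1 and CDH5 had at most 1 read, while VWF averaged 4.59 CPM in DMSO and 8.49 in MAPKi, 3.64 in CTRL and 4.70 in Gln-depleted. Of 5 fibroblast markers, DCN had at most 4 reads and COL1A2 at most 1, COL1A1 had 4 to 70, LUM averaged 18.6 CPM in DMSO, 11.6 in MAPKi, 14.8 in CTRL and 3.13 in Gln-depleted, and PDGFRA 5.43, 4.98, 4.66 and 11.4 CPM in the same order. Their summed level was 21.8 to 28.1 CPM in DMSO and 16.4 to 21.2 in MAPKi, and 16.8 to 25.7 in CTRL and 13.5 to 16.2 in Gln-depleted. The summed level of 4 leukocyte markers was 54.4 to 64.2 CPM in DMSO and 391 to 404 CPM in MAPKi. It came mostly from CD68, also a lysosomal gene, at 59.1 ± 4.9 and 398 ± 6 CPM (SD, n = 3), while PTPRC had 14 to 17 reads in DMSO and 3 to 6 in MAPKi. The sum of 3 neuronal markers was 186 to 193 CPM in DMSO and 358 to 376 in MAPKi, nearly all of it TUBB3, with RBFOX3 at 0 to 5 reads per library. The part of these genes in the results was not tested. RN7SK, a small nuclear RNA, took 3.95 to 4.397% of the reads in MAPKi, 1.93 to 2.15% in DMSO, 1.99 to 3.79% in Gln-depleted and 1.55 to 2.25% in CTRL, and its part in the results was not tested. In the second experiment, replicate 1 of both groups came from experimental batch 1 and replicates 2 and 3 from batch 2. Libraries of a group differed more there, with a chi-square per degree of freedom of 39.6 to 191 between libraries, against 4.74 to 15.6 in the first experiment.

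The genes lie apart in the genome. Positions are those of the GENCODE annotation on GRCh38. SOX10 is on chromosome 22 (37970686 to 37987422, minus strand), SOX9 on 17 (72121020 to 72126416, plus), SOX2 on 3 (181711925 to 181714436, plus), SOX4 on 6 (21593751 to 21598619, plus) and SOX5 on 12 (23529504 to 24562544, minus). PAX3 is on chromosome 2 (222199887 to 222298998, minus), TFAP2A on 6 (10393186 to 10419659, minus), TFAP2C on 20 (56629306 to 56639283, plus) and NGFR on 17 (49495293 to 49515008, plus). SOX2 and SOX4 consist of 1 exon each, whereas SOX5 spans more than any other of the 10.

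To show the DNA in front of the SOX genes that moved most with MAPKi among those at hand, the 250 bases upstream of the RefSeq start (GRCh38.p14) are printed for SOX2 (chr3:181711675-181711924, plus strand), SOX4 (chr6:21593501-21593750, plus strand) and SOX5 (chr12:24562492-24562741, minus strand), on the strand of the gene. Capitals mark matches, on either strand, to the SOX letters ACAAAG or ACAATG, the AP-2 letters GCCNNNGGC, the AP-1 letters TGANTCA, the E-box CAGGTG or the ETS letters CCGGAA.
SOX2: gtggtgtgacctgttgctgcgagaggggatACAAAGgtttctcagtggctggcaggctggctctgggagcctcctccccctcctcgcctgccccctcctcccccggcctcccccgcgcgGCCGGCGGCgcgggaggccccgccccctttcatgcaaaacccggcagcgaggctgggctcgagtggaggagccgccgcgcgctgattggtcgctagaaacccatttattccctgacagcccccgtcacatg
SOX4: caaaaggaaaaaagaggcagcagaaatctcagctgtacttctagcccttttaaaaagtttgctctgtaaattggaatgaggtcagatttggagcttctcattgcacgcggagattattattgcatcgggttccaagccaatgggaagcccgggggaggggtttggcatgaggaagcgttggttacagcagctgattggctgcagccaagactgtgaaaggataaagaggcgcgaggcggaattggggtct
SOX5: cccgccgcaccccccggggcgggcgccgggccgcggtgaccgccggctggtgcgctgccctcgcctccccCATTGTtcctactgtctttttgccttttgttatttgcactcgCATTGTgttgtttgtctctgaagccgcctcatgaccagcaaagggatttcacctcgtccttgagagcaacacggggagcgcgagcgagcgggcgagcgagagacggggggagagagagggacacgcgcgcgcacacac
The SOX2 window held 1 ACAAAG and 1 AP-2 match, the SOX5 window held 2 ACAATG matches, written here from the other strand, and the SOX4 window held none of these letters. The windows differed in base composition, with 68.8% G and C in SOX2, 65.6% in SOX5 and 48.8% in SOX4. Of 35116 promoter windows of the same length, 13.72% held ACAAAG, 9.286% ACAATG, 19.79% GCCNNNGGC, 6.573% TGANTCA, 17.49% CAGGTG and 14.53% CCGGAA. The windows of PAX3 and TFAP2A, also in the RefSeq table, held no match.

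In untreated cells, SOX9 and SOX10 stood far above the other 8 genes. Because longer genes collect more reads, levels of different genes are compared as CPM per kb of annotated exon. On this scale SOX9 averaged 141 ± 4 and SOX10 120 ± 4 in DMSO (SD, n = 3), followed by TFAP2C at 21.4 ± 0.9, SOX5 at 13.5 ± 0.2, SNAI2 at 10.8 ± 0.8 and SOX4 at 10.4 ± 0.4. Below them came TFAP2A at 3.73 ± 0.28, PAX3 at 2.38 ± 0.12, NGFR at 0.969 ± 0.179 and SOX2 at 0.435 ± 0.062 CPM per kb. SNAI2 and SOX4 overlapped, and each other gene lay above the next in every DMSO library. CTRL cells gave the same order, where SOX9 overlapped with SOX10, SOX5 with SNAI2, and SNAI2 with SOX4.

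MAPKi rearranged this order. NGFR, SOX4, SOX2 and TFAP2A rose, SNAI2 rose slightly, and SOX9, SOX5 and TFAP2C fell, whereas SOX10 and PAX3 did not pass the test against the fold-change threshold. By level per kb, SOX10 then led with 176 ± 5, SOX4 came next with 103 ± 4 and NGFR after it with 32.2 ± 3.4 CPM per kb (SD, n = 3). SOX9 dropped to 13.8 ± 1.1 CPM per kb, next to TFAP2A at 13.1 ± 0.2, with which it overlapped. A change was called where it exceeded 1.5-fold with an adjusted p no higher than 0.05, adjusted over 12608 protein-coding genes, and all 10 genes passed the filter on low counts. Of all genes tested, 17.5% were called higher and 18.1% lower. Of the 10 genes, 5 were called higher and 3 lower. The median absolute log2 fold change was 2.09 for the 10 genes and 0.53 for all genes tested. Against no change, all 10 passed, as did 78% of all genes. The 3 MAPKi libraries did not overlap the 3 DMSO libraries for any of the 10, which held for 80.8% of all genes.

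**Figure D1:**
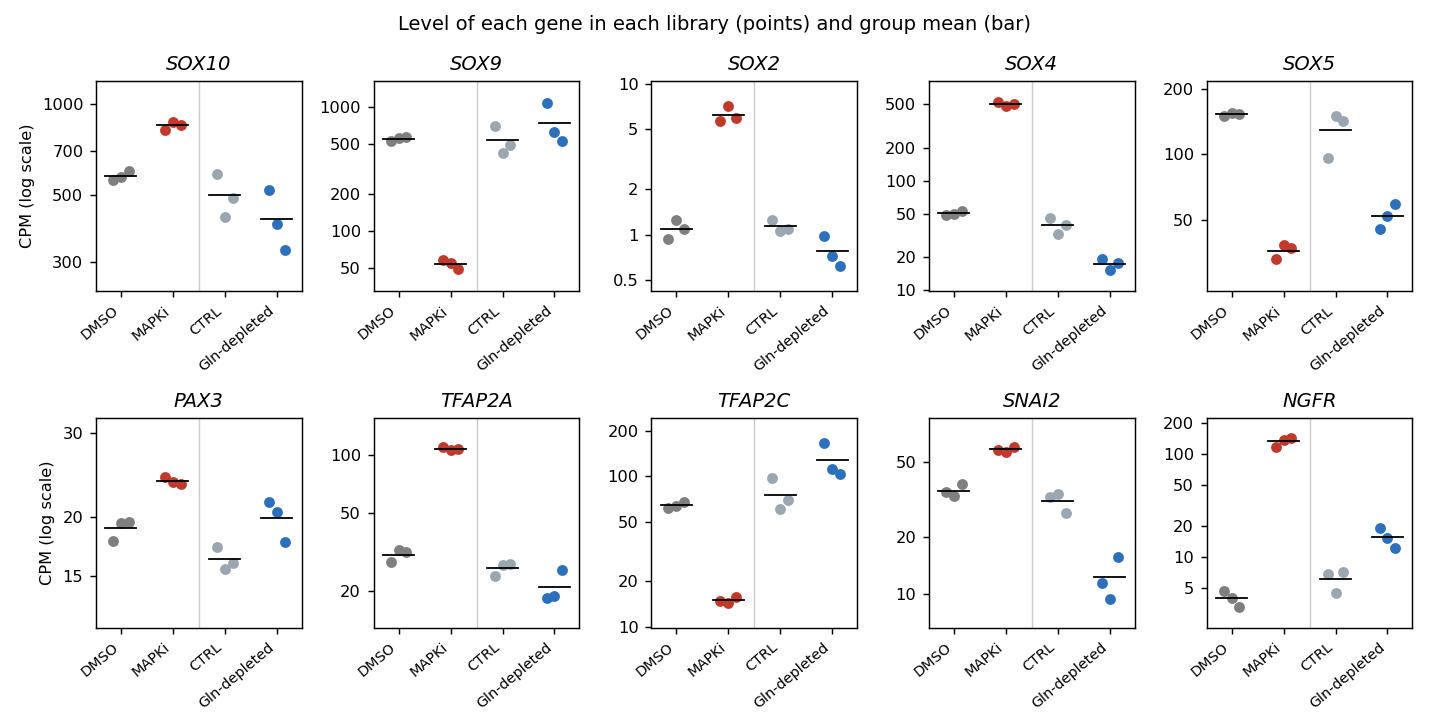
Level of each of the 10 genes as CPM on a log scale, with 1 point per library, in replicate order from left to right, and a bar at the mean of the 3 libraries of each group. MAPKi and DMSO points are apart in all 10 panels, and NGFR shows the widest gap, from 3.26 to 4.74 CPM in DMSO to 117 to 144 CPM in MAPKi.

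Both SOXE factors were abundant before treatment, and they parted with MAPKi. SOX10, required for melanocytes and Schwann cells, measured 564, 573 and 603 CPM in the DMSO libraries and 824, 874 and 855 CPM in the MAPKi libraries. All MAPKi libraries were higher than all DMSO libraries, yet the rise was small. Its log2 fold change was 0.55 ± 0.05 (SE), below the threshold (adjusted p = 0.929) although different from no change (adjusted p = 3.19e-06). SOX9, which directs cartilage formation and is expressed earlier in the crest, measured 534, 559 and 568 CPM in DMSO and 57.8, 55.2 and 49.5 CPM in MAPKi. The groups were far apart, the highest MAPKi library lying well under the lowest DMSO library. SOX9 was 10.2-fold lower (log2 fold change −3.35 ± 0.07, adjusted p = 1.08e-09). Within a library, SOX9 over SOX10 per kb was 1.17 ± 0.02 in DMSO and 0.0782 ± 0.0076 in MAPKi (SD, n = 3), so that the nearly equal pair of the DMSO cells became a SOX10-dominated one.

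The other SOX factors moved in both directions. SOX4, a SOXC protein of embryonic progenitors, measured 48.8, 49.9 and 52.6 CPM in DMSO and 524, 485 and 502 CPM in MAPKi. The libraries of each group lay close together, and the groups were wide apart. SOX4 was 9.98-fold higher (log2 fold change 3.32 ± 0.06, adjusted p = 4.12e-10). SOX2, a SOXB protein of pluripotent and neural stem cells, had only 31, 45 and 40 reads in DMSO and 200, 224 and 235 reads in MAPKi, which is 0.935, 1.25 and 1.09 against 5.69, 7.09 and 5.92 CPM. It remained the lowest of the 10 genes per kb in every group, at 2.48 ± 0.30 CPM per kb in MAPKi, though all MAPKi libraries were higher than all DMSO libraries. Its rise was 5.68-fold (log2 fold change 2.51 ± 0.16, adjusted p = 1.71e-06). SOX5, a SOXD protein that has no activation domain of its own and modulates SOX9 and SOX10 at their targets, measured 150, 155 and 154 CPM in DMSO and 33.1, 38.2 and 37.3 CPM in MAPKi. It was lower in every MAPKi library, by 4.23-fold (log2 fold change −2.08 ± 0.06, adjusted p = 8.71e-09). SOX4 over SOX5 per kb went from 0.764 ± 0.025 to 32.4 ± 3.8 within libraries.

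The pair of AP-2 factors crossed over. TFAP2A (AP-2 alpha), which acts in the crest and with MITF in melanocytes, measured 28.1, 32.4 and 31.6 CPM in DMSO and 109, 106 and 108 CPM in MAPKi. TFAP2C (AP-2 gamma), known from trophoblast and germ cells as well as the crest, measured 62.0, 63.6 and 67.1 CPM in DMSO and 14.8, 14.5 and 15.8 CPM in MAPKi. TFAP2A was high and TFAP2C low in each of the 3 MAPKi libraries, with no overlap for either gene. TFAP2A rose 3.51-fold (log2 fold change 1.81 ± 0.06, adjusted p = 2.12e-08) and TFAP2C fell 4.27-fold (log2 fold change −2.09 ± 0.06, adjusted p = 7.26e-09). Per kb, TFAP2A over TFAP2C was 0.174 ± 0.011 in DMSO and 2.63 ± 0.12 in MAPKi (SD, n = 3).

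PAX3 and SNAI2 both rose slightly, and only SNAI2 was called. PAX3, a paired-box factor that precedes MITF, measured 17.8, 19.4 and 19.5 CPM in DMSO and 24.3, 23.6 and 23.5 CPM in MAPKi. The MAPKi libraries were all higher, by 1.26-fold (log2 fold change 0.33 ± 0.06, adjusted p = 0.000513 against no change and 1 against the threshold). SNAI2 (Slug; chromosome 8, 48917598 to 48921740, minus strand) is a repressor of E-cadherin. It measured 34.6, 33.0 and 38.4 CPM in DMSO and 58.4, 57.0 and 60.6 CPM in MAPKi. Groups were apart, and the rise of 1.66-fold passed the threshold (log2 fold change 0.73 ± 0.06, adjusted p = 0.0133). The fold change of SNAI2 lay close to the threshold, and its call depended on the libraries and the fit. It was lost without MAPKi replicate 3 (log2 fold change 0.70, adjusted p = 0.0573) or DMSO replicate 2 (0.69, adjusted p = 0.0596), and with DESeq2 (0.72, adjusted p = 0.190) or a fit of all 12 libraries (0.73, adjusted p = 0.221).

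NGFR changed most. DMSO libraries had 157, 146 and 119 reads and MAPKi libraries 4109, 4385 and 5703 reads, which is 4.74, 4.05 and 3.26 against 117, 139 and 144 CPM. The lowest MAPKi library was far above the highest DMSO library. The rise was 33.3-fold (log2 fold change 5.06 ± 0.12, adjusted p = 2.54e-09), rank 75 of 12608 genes by absolute log2 fold change. In bulk RNA, a change in all cells cannot be told apart from a change in the share of cells that express the gene.

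**Figure D2:**
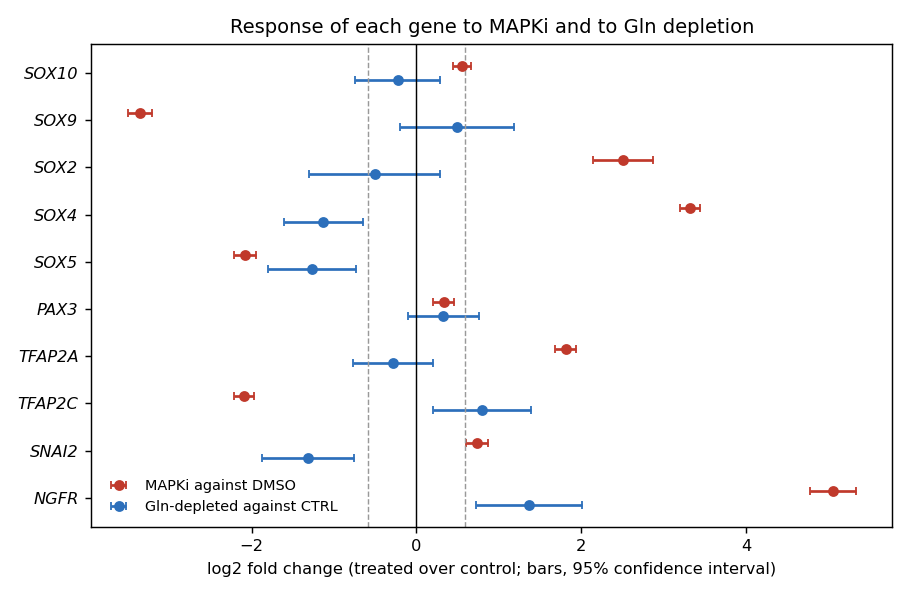
Log2 fold change of each gene in MAPKi against DMSO (red) and Gln-depleted against CTRL (blue), with 95% confidence intervals of the edgeR fit and dashed lines at a 1.5-fold change. Red intervals are short, with points from −3.35 for SOX9 to 5.06 for NGFR, and blue intervals are wider. Blue points lie on the other side of 0 for 7 of the 10 genes. Among these, the blue intervals of SOX10, SOX9, SOX2 and TFAP2A include 0.

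With Gln depletion the median absolute log2 fold change was 0.65 for the 10 genes and 0.45 for all genes tested, and SNAI2 had a larger fitted change than with MAPKi. Against no change, SNAI2, SOX5 and SOX4 fell and NGFR rose, and SOX9 and SOX10 were at levels that overlapped with CTRL. Of 12524 genes tested, 1.92% were called lower and 3.51% higher. Among the 10 genes, SNAI2 alone was called, lower, and none was called higher by edgeR. In the same test against the threshold, 3 were lower and 1 was higher at an unadjusted p under 0.05. The share of all genes at that unadjusted p is not given here. DESeq2 called 0 of the 10 in either direction. Against no change, 3 were lower and 1 higher, and 17.7% of all genes passed. Groups did not overlap for 7 of the 10 genes, 3 higher and 4 lower, against 39.7% of all genes. Because replicate numbers pair the libraries of this experiment, the fit was repeated with the replicate number as a block. With the replicate block, 3 genes (SNAI2, SOX5 and SOX4) were called lower and 1 (NGFR) higher, as also with experimental batch as a term. The shares of all genes called in these fits are not given here, and those above are of the fit without a block.

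SNAI2 measured 32.9, 34.0 and 27.0 CPM in CTRL replicates 1 to 3 and 11.4, 9.41 and 15.8 CPM in Gln-depleted replicates 1 to 3. Every Gln-depleted library was lower than every CTRL library. SNAI2 fell 2.50-fold (log2 fold change −1.32 ± 0.24, adjusted p = 0.0487), and with the replicate block by 1.35 on the log2 scale (adjusted p = 0.0139). Its call is near the threshold. It was lost on leaving out CTRL replicate 1 (adjusted p = 0.0794), CTRL replicate 2 (0.148), CTRL replicate 3 (0.0977), Gln-depleted replicate 1 (0.0768) or Gln-depleted replicate 2 (0.174), with log2 fold changes of −1.17 to −1.41. DESeq2 (adjusted p = 0.108), a fit of all genes of the table (0.0525) and batch 2 alone (−1.25, adjusted p = 0.0731) did not call SNAI2 either.

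SOX5 and SOX4 were lower in all Gln-depleted libraries. SOX5 measured 96.6, 149 and 142 CPM in CTRL and 45.4, 52.4 and 59.1 CPM in Gln-depleted. CTRL replicate 1, of batch 1, was the lowest of its group, but still above all Gln-depleted libraries. Its log2 fold change was −1.27 ± 0.23 (adjusted p = 0.0502 against the threshold and 0.0104 against no change), with the replicate block −1.25 (adjusted p = 0.00320), without CTRL replicate 1 −1.45 (adjusted p = 0.0207) and in batch 2 alone −1.35 (adjusted p = 0.00964). SOX4 measured 45.6, 32.6 and 39.3 CPM in CTRL and 19.4, 15.3 and 17.7 CPM in Gln-depleted. The groups did not overlap, and SOX4 was lower in 3 of 3 pairs by nearly the same ratio, 0.425, 0.470 and 0.449 of the CTRL library with the same number. The log2 fold change was −1.13 ± 0.21 (adjusted p = 0.0630, and 0.0107 against no change), with the replicate block −1.12 (adjusted p = 0.00537) and in batch 2 alone −1.09 (adjusted p = 0.0414).

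NGFR had at least 165 reads in every CTRL library and at least 373 in every Gln-depleted library. Replicates 1 to 3 measured 6.92, 4.45 and 7.26 CPM in CTRL and 19.1, 15.5 and 12.2 CPM in Gln-depleted. Each Gln-depleted library exceeded each CTRL library, the third pair by least, with ratios of 2.76, 3.49 and 1.69 in pairs 1 to 3. NGFR was 2.58-fold higher (log2 fold change 1.37 ± 0.28, adjusted p = 0.0645 against the threshold and 0.0153 against no change). With the replicate block it was called (log2 fold change 1.38, adjusted p = 0.0163), and in batch 2 alone it was not (1.27, adjusted p = 0.0808).

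In the fit without a block, the remaining 6 genes did not pass either test with Gln depletion. With the replicate block they were not called beyond the threshold either, and a blocked test against no change is not given here. TFAP2C came closest. It measured 96.8, 60.7 and 69.3 CPM in CTRL and 167, 112 and 104 CPM in Gln-depleted, with no overlap (log2 fold change 0.79 ± 0.26, adjusted p = 0.393, and 0.0678 against no change). SOX9 measured 707, 428 and 497 CPM in CTRL and 1069, 632 and 532 CPM in Gln-depleted. Replicate 1 was the highest library in both groups, and the groups overlapped (log2 fold change 0.49 ± 0.30, adjusted p = 0.285 against no change). SOX10 measured 589, 425 and 491 CPM in CTRL and 522, 401 and 330 CPM in Gln-depleted, again with the highest values in replicate 1 and overlapping groups (−0.23 ± 0.23, adjusted p = 0.510 against no change). TFAP2A, at 23.7, 27.0 and 27.5 against 18.3, 18.8 and 25.7 CPM, overlapped too (−0.28 ± 0.21, adjusted p = 0.383 against no change). PAX3, at 17.2, 15.5 and 16.0 against 21.4, 20.5 and 17.7 CPM, was higher in every Gln-depleted library (0.33 ± 0.19, adjusted p = 0.255 against no change). SOX2 had 45, 39 and 44 reads in CTRL and 34, 27 and 19 reads in Gln-depleted, lower without overlap, and at these counts a change of its size, −0.51 ± 0.35, could not be told from the spread (adjusted p = 0.336 against no change). Within the same replicate number, each of the 10 genes had the same direction in 3 of 3 pairs. That agreement was not tested, and the share of all genes that show it was not computed.

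**Figure D3:**
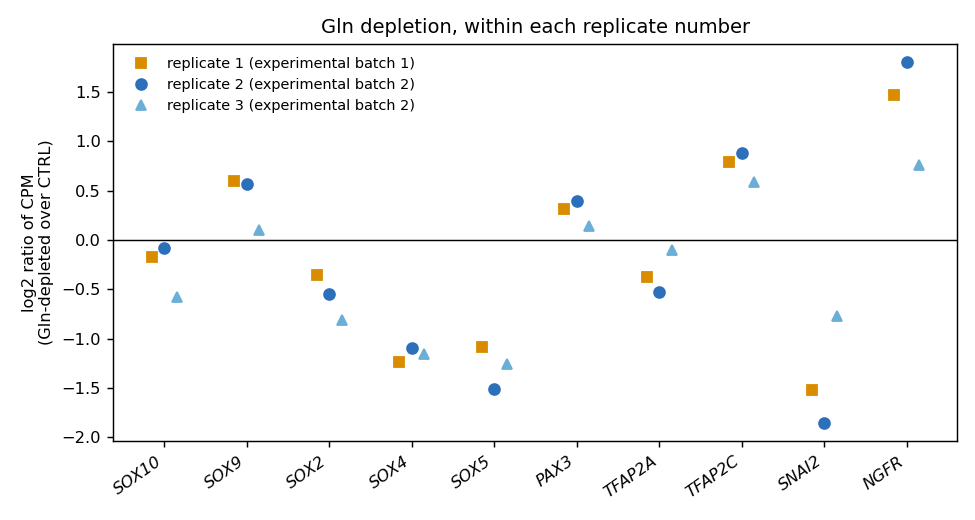
Log2 ratio of CPM, Gln-depleted over CTRL, within each replicate number, for the 10 genes. Squares are replicate 1 (experimental batch 1), circles and triangles replicates 2 and 3 (experimental batch 2). The 3 marks of each gene are on the same side of 0, and the share of all genes that do so was not computed.

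Ratios within a library were also compared for Gln depletion. SOX9 over SOX10 per kb was 1.32 ± 0.14 in CTRL and 2.14 ± 0.32 in Gln-depleted (SD, n = 3), and the lowest Gln-depleted library, at 1.94, was above the highest CTRL library, at 1.47. TFAP2A over TFAP2C was 0.132 ± 0.038 in CTRL and 0.0638 ± 0.0250 in Gln-depleted, from 0.0401 to 0.0899, which overlapped with CTRL at 0.0894 to 0.162. SOX4 over SOX5 was 0.748 ± 0.309 and 0.787 ± 0.176, with overlapping libraries. These ratios were not tested. By level per kb in Gln-depleted cells, SOX9 led with 189 ± 73, then SOX10 with 86.5 ± 20.1 and TFAP2C with 42.5 ± 11.4. SOX5 (4.63 ± 0.61), NGFR (3.77 ± 0.83), SNAI2 (3.72 ± 0.99) and SOX4 (3.59 ± 0.42 CPM per kb) overlapped with their neighbours in that order.

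**Figure D4:**
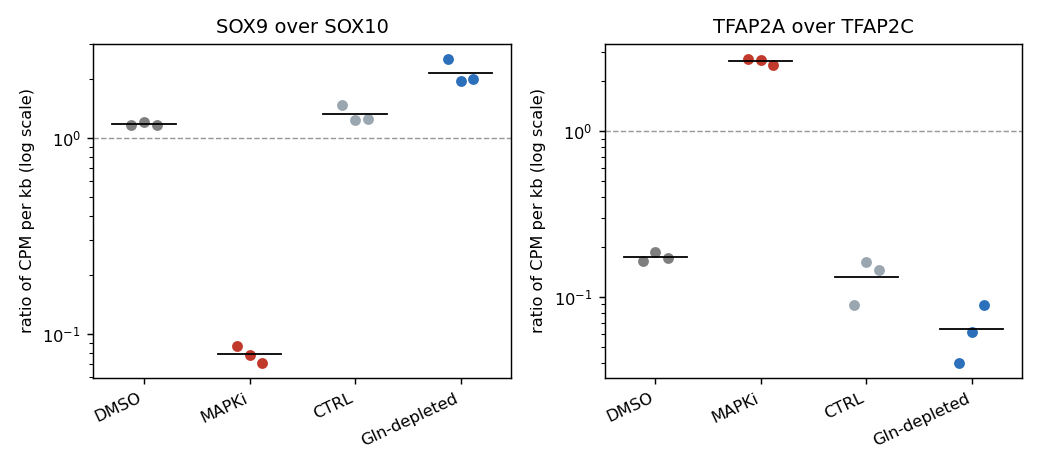
Ratio of CPM per kb within each library, on a log scale, of SOX9 over SOX10 (left) and TFAP2A over TFAP2C (right), with 1 point per library, the group mean as a bar and a dashed line at 1. In MAPKi the first ratio lies below 1, between 0.0710 and 0.0862, and the second above 1, between 2.49 and 2.71, whereas the other groups lie on the other side of 1.

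To ask whether the treatments differed in their effect on these genes, the effect of Gln depletion was subtracted from that of MAPKi in 1 fit of the 12 libraries. Each experiment was sequenced in its own batch with its own controls, so the treatments and the sequencing batches cannot be told apart beyond those controls. That fit takes 1 spread per gene from both experiments, although libraries of a group differed more in the second. For SOX2, SOX4, SOX5, PAX3 and TFAP2A the SE of the difference was below that of the Gln depletion effect alone. For the other genes it was not. The SE, intervals and p-values of the differences may therefore be too small. Of 12640 genes, 40.3% differed, and of the 10 genes, 9 did. SOX4 differed most, by 4.49 ± 0.20 on the log2 scale (SE, adjusted p = 5.19e-08), since it rose with MAPKi and fell with Gln depletion. NGFR differed by 3.72 ± 0.31 (adjusted p = 4.86e-06) although both effects were positive, and SOX5 by −0.77 ± 0.23 (adjusted p = 0.0180) although both were negative. SNAI2 differed by 2.09 ± 0.24 (adjusted p = 4.89e-05), SOX9 by −3.81 ± 0.35 (adjusted p = 1.03e-05) and TFAP2C by −2.85 ± 0.28 (adjusted p = 1.70e-05). SOX2, TFAP2A and SOX10 differed by 3.05, 2.13 and 0.82, with adjusted p of 3.00e-05, 1.06e-05 and 0.0153. PAX3 was the exception. Its difference was 0.04, with a 95% confidence interval from −0.31 to 0.39 (adjusted p = 0.854). The fitted direction was opposite for 7 genes and the same for SOX5, PAX3 and NGFR. Of the opposite ones, SOX4 and SNAI2 passed the test against no change in both experiments, as SOX5 and NGFR did among those of the same direction.

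Genes around the 10 were read from lists of their relatives, partners and targets. In MAPKi, 29 of 97 listed genes tested were called lower and 30 higher, and in Gln-depleted 1 of 94 lower and 9 higher, or 7 lower with the replicate block. The median log2 fold change of all genes tested was 0.02 in both experiments.

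Among 25 other specifier and progenitor genes of the crest, 21 were tested in MAPKi, of which 7 fell and 6 rose (median −0.05). FOXD3, a forkhead factor of crest stem cells, rose from 11.6 ± 0.2 to 54.8 ± 3.7 CPM (SD, n = 3, log2 fold change 2.24), and CDH6, a cadherin of the premigratory crest, went from 0 to 1 reads per DMSO library to 26 to 32 per MAPKi library. MYC fell from 45.7 ± 2.9 to 2.78 ± 0.42 CPM (log2 fold change −4.05). TFAP2B, the third AP-2 gene, fell like TFAP2C, from 20.6 ± 3.1 to 2.33 ± 0.39 CPM (log2 fold change −3.14), and TFAP2E rose like TFAP2A, from 0.537 ± 0.060 to 1.36 ± 0.17 CPM (1.34, adjusted p = 0.00492, not called by DESeq2 at 0.0948). With Gln depletion 19 were tested and LMO4, a LIM-only cofactor, was called higher (1.76, adjusted p = 0.00648). FOXD3 was at 11.9 ± 3.4 CPM in CTRL and 11.5 ± 2.4 in Gln-depleted, and TFAP2B had 600 to 961 and 488 to 687 reads.

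Of 14 other SOX genes, 6 were tested in each experiment, with 1 called lower and 1 higher in MAPKi and 1 higher in Gln-depleted. SOX8, the third SOXE gene, was called in both experiments, in opposite directions. It fell from 6.58 ± 0.67 CPM in DMSO to 2.85 ± 0.30 in MAPKi (log2 fold change −1.21, adjusted p = 0.000401) and rose from 9.55 ± 1.70 CPM in CTRL to 46.6 ± 11.1 in Gln-depleted (2.32, adjusted p = 0.00363; SD, n = 3). SOX6, a SOXD gene like SOX5, went the other way from SOX5 in MAPKi (0.69, adjusted p = 0.00961), a call lost with DESeq2 (0.0818) and with a fit of all 12 libraries (0.223). SOX3, SOX11, SOX14 and SOX21 had 0 reads in every library.

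The pigment cell list holds genes that SOX10, PAX3 and MITF are known to act on. Of its 10 genes, 8 were tested in MAPKi and 6 were called higher, with a median log2 fold change of 2.13, whereas EDNRB (−0.03) and RAB27A (0.55) were not called. DCT, a pigment enzyme, went from 198 ± 40 to 7770 ± 1211 CPM (SD, n = 3, log2 fold change 5.30), PMEL, of the melanosome matrix, from 28.4 ± 3.6 to 216 ± 51 CPM (2.93) and TYRP1 from 1.45 ± 0.19 to 9.30 ± 1.75 CPM (2.68). MITF rose from 387 ± 6 to 671 ± 20 CPM (0.80, adjusted p = 0.000373), not called in a fit of all 12 libraries (0.188). With Gln depletion MITF was the listed gene called lower. It fell from 301 ± 90 CPM in CTRL to 58.7 ± 13 in Gln-depleted (−2.33, adjusted p = 0.00630, and −2.30 with the replicate block).

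The glial genes split. Of 10 Schwann and glial genes tested in MAPKi, 4 rose and 4 fell (median 0.39). ERBB3, the neuregulin receptor driven by SOX10, rose from 498 ± 34 to 1077 ± 134 CPM (1.11), while GJB1 (−3.83) and FABP7 (−2.88) fell. EGR2, the regulator of myelination and an immediate-early gene, had 28 to 42 reads per DMSO library and 0 to 3 per MAPKi library. With Gln depletion EGR2 was called higher (2.87, adjusted p = 0.0315), from 17 to 44 reads in CTRL to 101 to 340, a call lost without CTRL replicate 2 or 3 or Gln-depleted replicate 2 or 3 (adjusted p from 0.0553 to 0.114). ERBB3 measured 607 ± 148 and 975 ± 63 CPM there (0.72, adjusted p = 0.439, and 0.0466 against no change).

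NGFR acts with co-receptors and binds neurotrophins. The neurotrophin receptor genes NTRK3 and NTRK2 were low. NTRK3, not tested, had 0 to 1 reads per library in DMSO and in MAPKi, 0 to 2 in CTRL and 6 to 23 in Gln-depleted, where it did not overlap with CTRL. NTRK2 had 2 to 28 reads per library. SORT1 (sortilin), the co-receptor of NGFR for proneurotrophins, rose from 440 ± 38 to 1813 ± 214 CPM with MAPKi (2.04, adjusted p = 2.17e-07), as did PSEN2 (1.39), a catalytic subunit of the gamma-secretase that cleaves NGFR. Of 17 neurotrophin genes tested, 6 were called higher and 1 lower (median 0.39). The lower one was RTN4R (−0.91), a Nogo receptor that pairs with NGFR, which was not called by DESeq2. BDNF, a ligand of NGFR, was called higher with Gln depletion, from 43 to 57 reads in CTRL to 128 to 550 in Gln-depleted (2.85, adjusted p = 0.0197). The BDNF call was lost without CTRL replicate 2 or 3 or Gln-depleted replicate 2 or 3 (adjusted p from 0.0702 to 0.0803), and NTRK2 was not called in either experiment (0.34 and −0.51).

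Among the genes near SNAI2 in epithelial-mesenchymal transition, 10 were tested in MAPKi, of which 4 fell and 3 rose (median −0.03). SNAI1, the paralogue of SNAI2, fell from 16.5 ± 1.9 to 3.65 ± 0.23 CPM (−2.17, adjusted p = 3.41e-07) and ZEB1 by 2.11 and TWIST1 by 1.51 on the log2 scale, while ZEB2 rose from 163 ± 6 to 460 ± 6 CPM (1.49). CDH1 (E-cadherin) was too low to be tested. It had 0 to 1 reads per library in DMSO and 3 to 8 in MAPKi, and 1 to 3 in CTRL and 15 to 18 in Gln-depleted, so that neither pair of groups overlapped. With Gln depletion 0 of 10 were called by edgeR or DESeq2, and 0 had an unadjusted p under 0.05 in the edgeR test against the threshold. Against no change, 1 was lower and 0 were higher, and 17.7% of all genes passed. SNAI1 was at 24.6 ± 3.5 CPM in CTRL and 18.1 ± 3.2 in Gln-depleted (−0.41, adjusted p = 0.974).

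A further list held genes of undifferentiated melanoma cells. Of 10 tested in MAPKi, 7 fell and 1 rose (median −1.41), and with Gln depletion 4 rose (median 1.64), or 1 without Gln-depleted replicate 2 or 3 and 2 without CTRL replicate 2 or 3. FOSL1 (−2.44) and NRG1 (−2.08) fell with MAPKi and were called higher with Gln depletion (2.24 and 1.83, adjusted p = 0.0288 and 0.0399). JUN, an AP-1 subunit, was called higher in both (2.07 and 1.63, adjusted p = 3.66e-05 and 0.0272). With Gln depletion the calls of FOSL1, NRG1 and JUN were each lost on leaving out Gln-depleted replicate 2 or 3 and at least 1 CTRL library, with adjusted p up to 0.108, 0.147 and 0.111.

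Of 17 cofactors and regulators of SOX10, PAX3 and the AP-2 proteins, 7 fell and 3 rose with MAPKi (median −0.66). POU3F2 (BRN2), a neural factor that represses MITF in some melanoma cells, fell from 57.1 ± 1.8 to 2.93 ± 0.27 CPM (−4.28) and LEF1 by 2.29 on the log2 scale, while CITED2, a coactivator of AP-2 proteins, rose (1.89). KCTD15, an inhibitor of AP-2 activity, was called higher with Gln depletion (1.63, adjusted p = 0.0118), though not without CTRL replicate 2 (adjusted p = 0.0582).

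**Figure D5:**
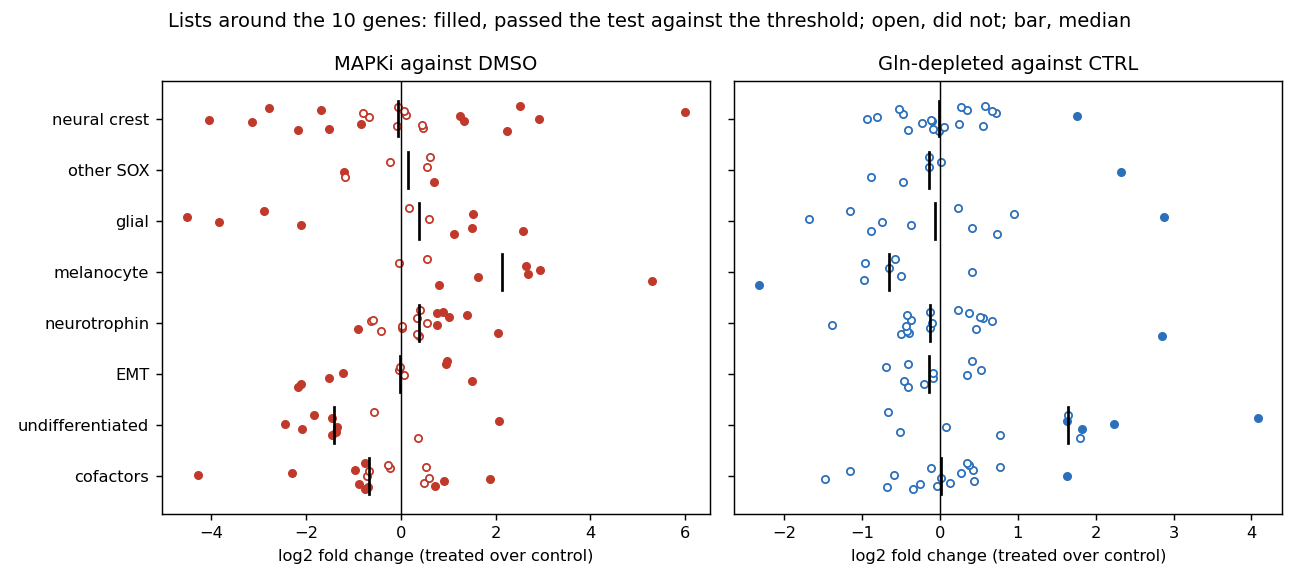
Log2 fold change of the genes of 8 lists in MAPKi against DMSO (left) and Gln-depleted against CTRL (right), with filled points for genes past the test against a 1.5-fold change, open points for the rest and a bar at the median of each list. The melanocyte list has its median at 2.13 on the left and −0.66 on the right, and the undifferentiated list at −1.41 and 1.64, and the rightmost neural crest point on the left is CDH6, whose fitted value rests on 0 to 1 reads per DMSO library.

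Several of the 10 genes overlap others, and the strand setting of the counting is not given in the sources used here. NGFR shares 27.19% of its exon bases with transcripts on the opposite strand and TFAP2A 16.78%, SOX10 shares 260 bases with POLR2F, SOX4 and SNAI2 share 3.45% and 3.688%, and SOX9, SOX2, SOX5, PAX3 and TFAP2C share none. Reads on the shared bases of NGFR and TFAP2A therefore cannot be told apart from those of their antisense partners. The shares are of GENCODE exons, whereas the methods name NCBI's annotation. The antisense genes of NGFR were not analysed here. TFAP2A-AS1 had 21 to 36 reads per DMSO library and 102 to 137 per MAPKi library, and TFAP2A-AS2 61 to 71 and 133 to 138, so that both were higher in every MAPKi library, as TFAP2A was. CCDC140, opposite PAX3, had 15 to 21 and 41 to 53. SOX2-OT, which contains SOX2, had 9 to 38 reads over the 12 libraries, and SOX9-AS1 17 to 38. POLR2F was at 70.0 ± 5.2 CPM in DMSO and 49.7 ± 0.8 in MAPKi (−0.49, not called), opposite in direction to SOX10.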

How the data were processed

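RNA-seq of A375 cells was analysed from the raw count table the authors deposited: reads were trimmed with fastp 0.20.1, mapped to GRCh38.p13 with HISAT2 2.2.1 and counted on exons with HTSeq 0.13.5, per the labels and the methods. The labels describe cytoplasmic RNA and the methods total RNA. Groups follow the labels, 3 libraries each. Depth was 31056296 to 40071368 counts (median 35748567).

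For each experiment separately, a quasi-likelihood model with treatment as its only term and TMM scaling was fitted (R 4.3.3, edgeR 4.0.16) to protein-coding genes by RefSeq type (36524 genes matched by symbol, 542 by an older one) whose normalized counts averaged 10 or more. A call needed glmTreat to place the change beyond 1.5-fold, with p no higher than 0.05 after Benjamini-Hochberg adjustment. A test against no change stands beside it. The difference between experiments was a contrast over the 12 libraries. SE is that of the log2 fold change. Exon length was the union of GENCODE v44 exons. Simulated counts, in which 200 genes were changed, served to test the scripts.

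The 10 genes, the lists and the tests were chosen with earlier results of these data known. Genes named are the 10, up to 3 called genes of largest change per list and experiment, overlapping genes with reads, and MITF, SNAI1, FOXD3, SOX8, TFAP2B, TFAP2E, ERBB3, NTRK2, SORT1 and ZEB2. RTN4R, NTRK3, CDH1 and the SOX genes without reads were added after their values were seen. Some genes that the rule names are not reported here.

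Alternatives were DESeq2 size factors, DESeq2 1.42.0, no filter, all genes of the table, no fold-change threshold, a fit of all 12 libraries, the replicate number as a block, and leaving out each library, and in Gln depletion experimental batch as a term or batch 2 alone. Pairing was checked by the correlation of deviations from the group mean of same-numbered libraries. It was 0.688, 0.591 and 0.450 in the Gln experiment, where the labels tie replicate 1 to one batch, so the numbers pair the libraries. In the MAPKi experiment it was 0.145, 0.0179 and 0.0462. The labels give shared numbers there too, and such weak values cannot decide whether those libraries are paired.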

Additional observations from a re-analysis of the deposited data

Results flagged for a closer look

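In 9 of the 10 genes the effect of MAPKi differed from that of Gln depletion in a test of the difference itself over the 12 libraries. In the same test 40.3% of 12640 genes differed. On the log2 scale, MAPKi minus Gln depletion, the difference was positive for SOX4 (4.49), NGFR (3.72), SOX2 (3.05), TFAP2A (2.13), SNAI2 (2.09) and SOX10 (0.82). It was negative for SOX9 (−3.81), TFAP2C (−2.85) and SOX5 (−0.77). All 9 differed in each fit without 1 library, with the replicate block and with DESeq2. The share of all genes that did so is not given here. The experiments were sequenced in separate batches, and the part of the batch was not tested.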

How the results depend on the processing

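With MAPKi, 3 of the 10 genes were called lower under each alternative and 4 to 5 higher without 1 library. With Gln depletion the count called lower, 1, was 0 with DESeq2 and with all genes of the table, 2 with DESeq2 size factors and in batch 2 alone, 3 with the replicate block, batch as a term, all 12 libraries or no fold-change threshold, and 0 to 1 without 1 library. The count called higher, 0, was 1 with the replicate block, batch as a term, all 12 libraries or no threshold. Apart from the test without a threshold, the shares of all genes called under these alternatives are not given here. Listed genes called lower with Gln depletion, 1, numbered 2 with DESeq2 or its size factors, 3 without the filter, 5 with all 12 libraries or batch 2 alone, 7 with the replicate block or batch as a term, 9 without a threshold and 1 to 3 without 1 library. Those called higher, 9, numbered 14 without a threshold and 4 to 10 without 1 library, the fewest being 4 without CTRL replicate 2, Gln-depleted replicate 2 or Gln-depleted replicate 3. In the MAPKi experiment the listed genes numbered 28 to 30 lower and 29 to 30 higher without 1 library, and there the replicate block changed no call of the 10 genes. In the first experiment same-numbered libraries correlated only weakly, which cannot decide whether they are paired. Sign changes touched fold changes near 0 that no setting called. The PAX3 difference between the experiments was −0.00185 without CTRL replicate 1 and −0.034 without Gln-depleted replicate 3, up to 0.10 without 1 library. With Gln depletion, FOXD3 was 0.00555 with the replicate block, 0.050 in batch 2 alone and −0.21 to 0.18 without 1 library. Without 1 library, TFAP2B ran from −0.27 to 0.091, TFAP2E from −0.37 to 0.16, TWIST1 from −0.19 to 0.079, ZEB1 from −0.54 to 0.088 and POLR2F from −0.36 to 0.17. NTRK2 in MAPKi ran from −0.093 to 0.61. The cause of these changes was not tested. Depth limits SOX2, at 19 to 45 reads in libraries other than MAPKi.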
